A study of Homo sapiens with 12 samples.

Results

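Genes that mark endothelial cells or build the junctions between them were followed in cultured human aortic endothelial cells. The set was a written list of 38 gene symbols, picked by name, with earlier results of these data known: 13 surface markers and receptors, 2 enzymes or signalling proteins, 4 secreted or matrix proteins, 9 genes of tight junctions, 8 of adherens junctions and 2 of gap junctions. Of these, 37 were found among the 35587 symbols of the deposited table, and 34 of those passed a filter on low values and were tested among 13299 genes. MCAM was not analysed here, and CGN, CLDN11 and OCLN, which code for proteins of tight junctions, were below the filter.

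The cells were TeloHAEC, an aortic endothelial line immortalised with telomerase. A line called TKO had been made with Cas9 and a guide against TSPAN14, a line called NKO with a guide against NOTCH1, and the control line NT is labelled wild type. Each line was plated on a surface coated with DLL4 or with control IgG at 2.5 mg/mL, and polyadenylated RNA was prepared from 140 ng of total RNA after 24 hours. There were 2 libraries in each of 6 groups: TKO on DLL4, TKO on IgG, NKO on DLL4, NKO on IgG, NT on DLL4 and NT on IgG. Each targeted gene is represented by 1 knockout line, so an effect of the targeted gene and any other difference between the lines cannot be told apart. Nothing in the labels beyond the words biological replicate tells whether libraries came from separate cultures. A p-value therefore sets a difference against the spread among these libraries, and may not extend to other cultures.

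Neighbouring endothelial cells hold to each other through adherens junctions, where the cadherin CDH5 is bound inside the cell by catenins, and through tight junctions, where claudins and JAM proteins are tied to the scaffold TJP1. Gap junctions made of connexins join the cytoplasm of adjacent cells. DLL4 is a Notch ligand on the surface of endothelial cells, TSPAN14 is a tetraspanin that partners the protease ADAM10, which cleaves Notch receptors, and Notch signalling takes part in arterial identity and in the choice between sprouting and quiescent endothelium.

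Values are TPM, transcript abundances scaled by transcript length and to a common total per library. No read numbers can be had from them, so the depth is unknown and precision is judged from how far libraries of the same group lie apart. The fit pools that spread over the 6 groups, so an SE is not the spread of 1 group's own 2 libraries. Changes are differences of log2(TPM + 1) from 1 limma fit over all 12 libraries, given with the standard error of the fit (SE) and with p adjusted by the Benjamini-Hochberg method over 13299 genes. A gene is called changed where that p is under 0.05. With 2 libraries against 2, an exact permutation test cannot give a two-sided p under 0.333. Adding 1 to each TPM understates the change of genes at low levels. In RNA from whole cultures, fewer cells of a type and less RNA per cell cannot be told apart.

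The endothelial label was checked against markers. All 8 endothelial markers looked for (PECAM1, CDH5, VWF, CLDN5, TIE1, TEK, KDR and ERG) reached 1 TPM, and they summed to between 900.2 and 1344 TPM per library. TSPAN14 was lower in TKO than in NT cells (log2 differences of -0.68 with DLL4, adjusted p = 0.00039, and -0.57 with IgG, adjusted p = 0.00149). NOTCH1 differed between NKO and NT cells by -0.61 on DLL4 (adjusted p = 0.0225) and by -0.10 on IgG (adjusted p = 0.720), the first a call that was lost without NT DLL4 library 2 (adjusted p = 0.158) or NKO DLL4 library 1 (adjusted p = 0.150). Pearson's r between the libraries of a group was 0.987 to 0.992, and 1 pseudogene symbol, KPNA2P2, took 0.280% to 5.61% of the TPM of a library. The summed lymphatic endothelial markers, carried by PDPN and LYVE1 with PROX1 under 1 TPM, were 51.9 to 81.6 TPM in TKO, 328.0 to 604.5 TPM in NKO and 207.1 to 244.9 TPM in NT libraries. These markers did not move together in NKO cells: against NT, PDPN rose by 1.77 ± 0.30 on DLL4 (limma adjusted p = 0.00226) and by 1.36 ± 0.30 on IgG (adjusted p = 0.0154), while LYVE1 fell by 0.61 ± 0.11 on DLL4 (adjusted p = 0.00263) and by 0.55 ± 0.11 on IgG (adjusted p = 0.00745). Of 8 epithelial markers only CLDN7 reached 1 TPM, at up to 15.0 TPM in TKO cells, and KRT5 and KRT14 were listed at 0 in all libraries. Smooth muscle (2 of 8 at 1 TPM, SMTN the highest), fibroblast (2 of 6, up to 4.29 TPM summed) and leukocyte markers (3 of 8, CD68 the highest) completed the survey. Some of these moved with the TKO line: against NT, SMTN rose by 0.44 ± 0.10 on DLL4 (adjusted p = 0.00659) and by 0.77 ± 0.10 on IgG (adjusted p = 0.00019), and COL1A2, a collagen gene, had 2.18 and 2.50 TPM in TKO against 0.225 and 0.104 TPM in NT cells on DLL4, and 2.74 and 2.88 TPM in TKO against 0.146 and 0.0269 TPM in NT cells on IgG. CLDN7 rose by 2.28 ± 0.24 on DLL4 (adjusted p = 4.6e-05) and 2.16 ± 0.24 on IgG (adjusted p = 8.4e-05). Of the leukocyte markers, CD14 rose by 2.75 ± 0.30 on DLL4 (adjusted p = 5.5e-05) and 1.65 ± 0.30 on IgG (adjusted p = 0.00213), and CORO1A fell by 0.89 ± 0.14 on DLL4 (adjusted p = 0.00056) and 1.49 ± 0.14 on IgG (adjusted p = 1.8e-05). CORO1A was lower in NKO cells as well, with 5.31 and 6.31 TPM on DLL4 against 9.82 and 9.54 TPM in NT cells. On IgG it had 7.06 and 7.21 TPM in NKO against 13.5 and 12.9 TPM in NT cells. The part of these marker differences in the results was not tested.

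Levels spread over 4 orders of magnitude. CD99, a surface glycoprotein used by leukocytes as they cross the endothelium, had the highest mean over the 12 libraries, 2001 TPM, and OCLN, which codes for occludin, the lowest, 0.125 TPM. A further 18 members averaged between 100 and 1000 TPM, 11 between 10 and 100, 4 between 1 and 10, and 3 below 1. Below CD99 came the secreted factor EGFL7 (690.0 TPM), the surface protein ECSCR (570.7 TPM), the junctional adhesion molecule ESAM (532.3 TPM) and the adhesion receptor ICAM2 (526.5 TPM). In these neighbours of the order the ranges over libraries overlapped: ECSCR spanned 525.0 to 617.1 TPM, ESAM 488.8 to 563.5 TPM and ICAM2 402.4 to 633.1 TPM. CDH5 (304.7 TPM) and PECAM1 (304.3 TPM) also overlapped. At the low end stood the sialomucins EMCN (4.09 TPM) and CD34 (3.11 TPM), the diaphragm protein PLVAP (3.02 TPM) and JAM2 (1.13 TPM).

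The members differed widely in how far they moved. Among the 34 tested members, the TPM of ESAM, between the lowest and the highest library, differed 1.15-fold and that of ECSCR 1.18-fold. At the other end stood MMRN1 (12.3-fold), CLDN5 (9.66-fold) and VWF (7.42-fold). Over all 11 comparisons, 22 of the 34 tested members were called in at least 1 and 12 in none. The share of all tested genes called in at least 1 was not computed, so this count has no baseline. In a single comparison, TKO against NT on IgG, 27.6% of all tested genes were called. Only CLDN5, PODXL, VWF, MMRN1, JUP and CD34 were called with a log2 change of at least 1 in size.

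**Figure D1:**
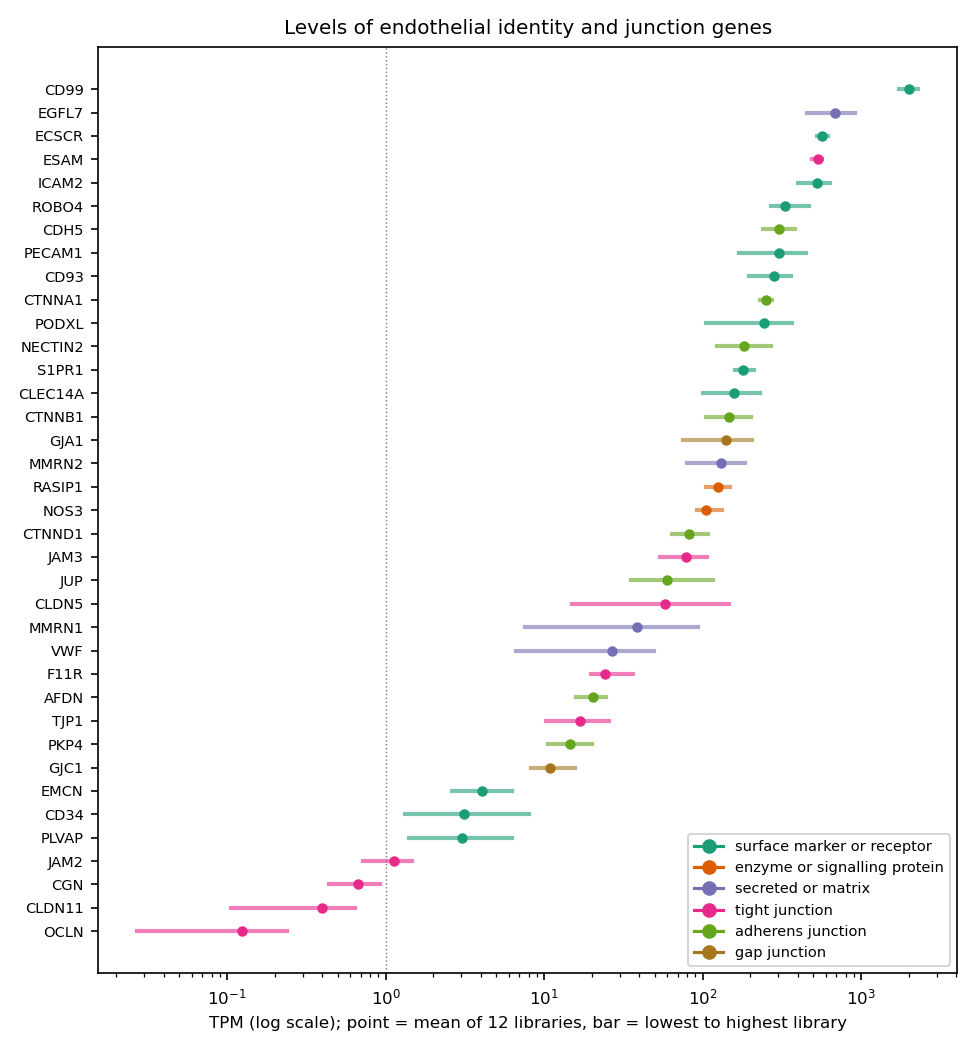
Level of each of the 37 measured members in TPM (log axis), ordered by level and coloured by role; the point is the mean of 12 libraries and the bar runs between the lowest and the highest library. CD99 is at the top of the scale with a mean of 2001 TPM and OCLN at the bottom with 0.125 TPM, and among the tested members MMRN1, CLDN5 and VWF have the longest bars.

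The first question was how the set responds when the Notch ligand is offered to each line. In TKO cells on DLL4, against TKO cells on IgG, 2 of the 34 members rose and 2 fell, against a background of 6.51% of all tested genes called (4.11% rose and 2.41% fell). In NKO cells 1 rose and 1 fell (background 0.782%, with 0.511% rose and 0.271% fell). In NT cells 10 rose and 3 fell (background 16.0%, with 7.68% rose and 8.34% fell). The median change on the log2 scale was 0.098 over the members and 0.015 over all genes in TKO cells, 0.0046 over the members and 0.010 over all genes in NKO cells, and 0.18 over the members and 0.015 over all genes in NT cells.

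CLDN5, the main claudin of endothelial tight junctions, fell on DLL4 in all 3 lines. In TKO cells the values were 36.3 and 30.9 TPM on DLL4 against 101 and 70.4 TPM on IgG. NKO cells held 15.1 and 16.7 TPM on DLL4 against 34.9 and 33.4 TPM on IgG, and NT cells 44.8 and 36.9 TPM on DLL4 against 134 and 146 TPM on IgG. Within each line both DLL4 libraries lay below both IgG libraries, and NKO cells on IgG were already at the level of the other lines on DLL4. The log2 change was -1.30 ± 0.16 in TKO (SE; limma adjusted p = 0.00067), -1.06 ± 0.16 in NKO (adjusted p = 0.00967) and -1.76 ± 0.16 in NT cells (adjusted p = 4.3e-05). The call in NKO cells was lost when any of its 4 libraries was left out: without IgG library 1 (adjusted p = 0.104), IgG library 2 (0.0548), DLL4 library 1 (0.0742) or DLL4 library 2 (0.0634).

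CLEC14A, a C-type lectin receptor of endothelial cells, was the member that rose in every line. Its TPM was 209 and 210 in TKO cells on DLL4 against 110 and 121 on IgG. In NKO cells it was 169 and 186 TPM on DLL4 against 101 and 108 TPM on IgG, and in NT cells 232 and 210 TPM on DLL4 against 115 and 113 TPM on IgG. All DLL4 libraries stood above all IgG libraries, and the IgG level was close to the same in the 3 lines. The log2 changes were 0.85 ± 0.08 in TKO (SE; limma adjusted p = 0.00013), 0.76 ± 0.08 in NKO (adjusted p = 0.00138) and 0.95 ± 0.08 in NT cells (adjusted p = 3.4e-05). These calls held in each fit that left out 1 library.

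Among secreted and matrix proteins, MMRN2, an extracellular matrix glycoprotein that binds CLEC14A, rose in TKO cells to 141 and 141 TPM on DLL4, against 79.6 and 91.3 TPM on IgG (0.72 ± 0.11, adjusted p = 0.00259). NKO cells were high on both coatings, with 154 and 185 TPM on DLL4 and 146 and 157 TPM on IgG, and their libraries overlapped. In NT cells it rose to 156 and 139 TPM on DLL4, against 82.2 and 92.1 TPM on IgG (0.75 ± 0.11, adjusted p = 0.00106). EGFL7, a secreted factor of endothelial cells, had 520 and 560 TPM in TKO cells on DLL4 against 712 and 704 TPM on IgG, which were separate without passing the test. In NKO cells the coatings overlapped, with 664 and 805 TPM on DLL4 and 745 and 920 TPM on IgG. In NT cells it had 496 and 457 TPM on DLL4 against 791 and 907 TPM on IgG, and fell by 0.83 ± 0.12 on the log2 scale (adjusted p = 0.00095). MMRN1, a multimerin of platelets and endothelium, rose in NT cells to 15.6 and 12.1 TPM on DLL4, against 8.52 and 7.59 TPM on IgG (0.71 ± 0.14, adjusted p = 0.00807). That call was lost without NT IgG library 3 (adjusted p = 0.069) or NT DLL4 library 2 (adjusted p = 0.0727).

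In NT cells on DLL4, 3 of 8 adherens junction genes, 2 of 6 tight junction genes and both gap junction genes rose. Of all tested genes, 7.68% rose in that comparison, and the classes hold few genes. TJP1, the scaffold protein ZO-1 of tight junctions, was at 20.5 and 19.7 TPM in NT cells on DLL4 against 10.9 and 10.2 TPM on IgG (0.87 ± 0.11, adjusted p = 0.00042). GJA1, connexin 43, was at 204 and 189 TPM on DLL4 against 113 and 108 TPM on IgG (0.83 ± 0.15, adjusted p = 0.00467). JUP, plakoglobin or gamma-catenin, was at 116 and 107 TPM on DLL4 against 64.8 and 71.9 TPM on IgG (0.70 ± 0.11, adjusted p = 0.00206). For each of these genes the NT libraries on DLL4 were both above those on IgG. NECTIN2, a nectin of adherens junctions, rose with 271 and 258 TPM on DLL4 against 169 and 194 TPM on IgG (0.55 ± 0.10, adjusted p = 0.00379). These 4 calls held when any 1 library was left out.

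A further 4 members of NT cells passed the test by less. The beta-catenin gene CTNNB1 rose by 0.58 ± 0.13 (adjusted p = 0.0118), a call lost without NT IgG library 2 (0.0784) or NT DLL4 library 2 (0.0855). F11R, which codes for JAM-A, rose by 0.45 ± 0.12 (adjusted p = 0.0273) and lost its call without the same libraries (0.163 and 0.198). The connexin 45 gene GJC1 rose by 0.60 ± 0.15 (adjusted p = 0.0201), and its call was lost without NT IgG library 2 (0.0616), NT IgG library 3 (0.127), NT DLL4 library 2 (0.134) or NT DLL4 library 3 (0.0512). ICAM2 fell by 0.47 ± 0.10 (adjusted p = 0.00800), and its call was lost without NT DLL4 library 3 (0.0588).

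PODXL, a sialomucin of the apical endothelial surface, was the member that fell in TKO cells besides CLDN5. Its TPM was 105 and 105 in TKO cells on DLL4 against 196 and 258 on IgG. In NKO cells it was 246 and 196 TPM on DLL4 against 369 and 225 TPM on IgG, and in NT cells 314 and 284 TPM on DLL4 against 292 and 328 TPM on IgG. The coatings were separate in TKO cells and overlapped in the other lines. The change in TKO cells was -1.09 ± 0.20 (SE; limma adjusted p = 0.00935), and the call was lost without TKO IgG library 3 (adjusted p = 0.0755), TKO DLL4 library 2 (0.062) or TKO DLL4 library 3 (0.0717).

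The defining genes PECAM1 and CDH5 gave no call on DLL4 in any line. PECAM1, the adhesion molecule CD31, had 364 and 339 TPM in TKO cells on DLL4 against 171 and 326 TPM on IgG, where the 2 libraries lay far apart. NKO cells held 253 and 342 TPM on DLL4 against 241 and 260 TPM on IgG, and NT cells 451 and 399 TPM on DLL4 against 230 and 275 TPM on IgG. In NT cells both DLL4 libraries of PECAM1 were above both IgG libraries, and its change was 0.75 ± 0.24 (limma adjusted p = 0.0569). That SE is pooled over the 6 groups, so it includes the spread of the 2 TKO libraries on IgG. CDH5, VE-cadherin, had 262 and 247 TPM in TKO cells on DLL4 against 242 and 275 TPM on IgG. It was at 317 and 329 TPM in NKO cells on DLL4 against 381 and 341 TPM on IgG, and at 350 and 318 TPM in NT cells on DLL4 against 287 and 308 TPM on IgG. Its coatings overlapped in TKO cells, with DLL4 the lower in NKO cells and the higher in NT cells, and no difference passed the test.

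**Figure D2:**
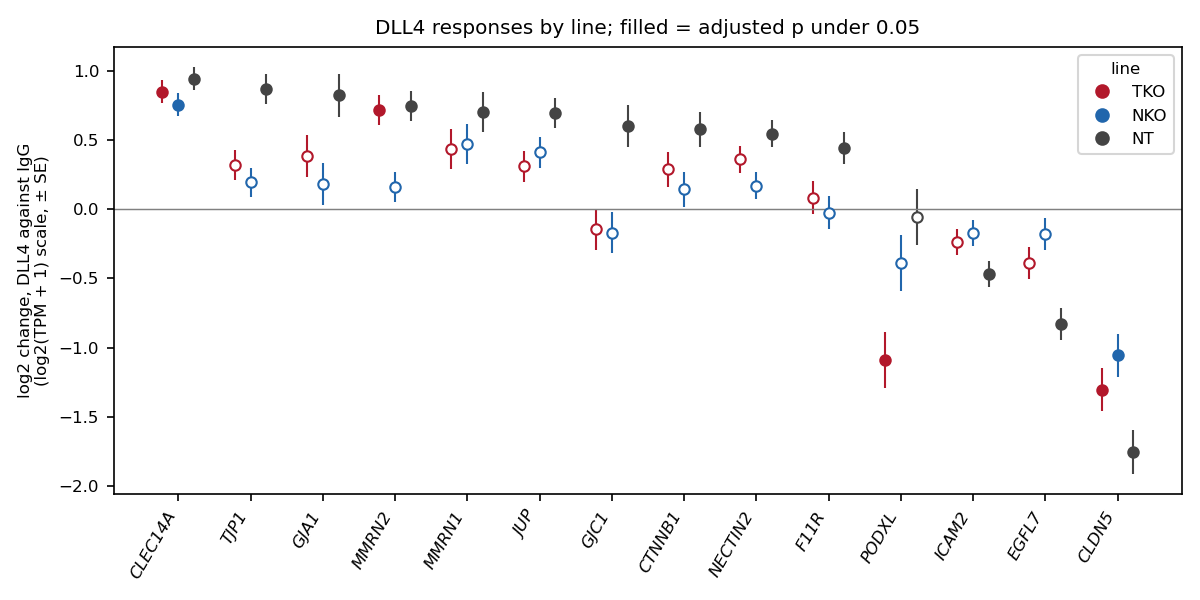
Log2 change on DLL4 against IgG in TKO, NKO and NT cells for the 14 members called in at least 1 line, with the standard error of the limma fit and filled symbols for an adjusted p under 0.05. CLEC14A stands above 0 and CLDN5 below 0 in all 3 lines, each with filled symbols, while TJP1 and GJA1 have a filled symbol for NT cells and open ones for the other lines.

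The lines were then compared in the size of their responses. Of the 13 members called in NT cells, 12 had a change of the same sign in TKO cells and 11 in NKO cells, of which 3 and 2 were called there. All 13 changes were smaller in size in TKO and in NKO cells, but these members were chosen by their change in NT cells, which favours that order. The difference between responses, TKO minus NT, was called for 0 of 34 members by limma (7 had an unadjusted p under 0.05), against 0.526% of all tested genes (0.196% higher and 0.331% lower). For NKO minus NT it was called for 0 of 34 (11 had an unadjusted p under 0.05), against 0.887% (0.316% higher and 0.571% lower). These percentages are of calls by adjusted p. The share of all tested genes with an unadjusted p under 0.05 was not computed, so the counts of 7 and 11 have no baseline. In each difference 27 of the 34 members had a negative sign, with a median of -0.16 for TKO and -0.21 for NKO, against 0.011 for TKO and -0.0035 for NKO over all genes, and the 2 differences share the NT libraries. TJP1 had the smallest adjusted p, 0.0805, for NKO minus NT (-0.68 ± 0.15).

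The levels of TJP1 and GJA1 in the knockout lines stood as follows. TJP1 had 23.2 and 25.8 TPM in TKO cells on DLL4 against 18.4 and 20.5 TPM on IgG, and 13.7 and 15.3 TPM in NKO cells on DLL4 against 13.0 and 12.04 TPM on IgG. Its level on IgG was high in TKO cells, where it rose above NT cells by 0.82 ± 0.11 (limma adjusted p = 0.00024). GJA1 had 196 and 182 TPM in TKO cells on DLL4 against 140 and 149 TPM on IgG, and its NKO libraries overlapped, with 115 and 93.5 TPM on DLL4 and 110 and 75.3 TPM on IgG.

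The sequences before the transcription start are shown for 3 of the called members that have a RefSeq window free of annotated exons: EGFL7, which fell on DLL4 in NT cells, TJP1, which rose there, and MMRN1, which had the widest range over the libraries. CLDN5 and CLEC14A, which had a smaller p than EGFL7 and TJP1 for DLL4 in NT cells, are not shown, and nor is JUP. Each sequence is 250 bases long, ends just before a start site and was taken from RefSeq (GRCh38.p14), for EGFL7 at chr9:136658606-136658855 and chr9:136662666-136662915 (plus strand), for TJP1 at chr15:29969050-29969299 (minus strand) and for MMRN1 at chr4:89879261-89879510 (plus strand). Capitals mark TGGGAA, the core letters bound by RBPJ, the DNA-binding partner of the Notch intracellular domain.
EGFL7, first start: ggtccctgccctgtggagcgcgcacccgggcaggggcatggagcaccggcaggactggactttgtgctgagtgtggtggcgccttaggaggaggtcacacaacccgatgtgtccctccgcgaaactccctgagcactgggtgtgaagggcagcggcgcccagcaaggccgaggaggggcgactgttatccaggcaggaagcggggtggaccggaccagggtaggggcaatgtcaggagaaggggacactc
EGFL7, second start: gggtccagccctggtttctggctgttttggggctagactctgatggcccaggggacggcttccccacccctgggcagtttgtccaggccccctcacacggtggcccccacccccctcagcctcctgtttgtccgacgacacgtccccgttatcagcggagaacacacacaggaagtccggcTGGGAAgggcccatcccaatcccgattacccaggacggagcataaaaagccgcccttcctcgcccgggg
TJP1, first start: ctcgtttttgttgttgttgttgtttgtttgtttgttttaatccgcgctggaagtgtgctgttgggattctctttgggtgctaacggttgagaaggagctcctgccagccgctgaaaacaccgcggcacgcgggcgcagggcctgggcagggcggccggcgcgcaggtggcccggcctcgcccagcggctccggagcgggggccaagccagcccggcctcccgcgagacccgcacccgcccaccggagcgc
MMRN1, first start: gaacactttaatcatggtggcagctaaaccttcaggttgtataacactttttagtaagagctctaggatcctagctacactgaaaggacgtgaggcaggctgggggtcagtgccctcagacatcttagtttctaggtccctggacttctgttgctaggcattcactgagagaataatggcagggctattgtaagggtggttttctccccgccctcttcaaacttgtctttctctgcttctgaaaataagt
The letters lie 69 bases before the second start of EGFL7 and are in none of the other 3 windows printed here.

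RefSeq windows were found for 24 member genes, with 37 start sites. TGGGAA or its reverse complement TTCCCA was in 8 of these 37 windows (21.6%), those of CTNNA1, EGFL7, JUP, MMRN1 (at its second start, not printed), MMRN2, NECTIN2, OCLN and PKP4. Among all 35116 windows of the same length, 7321 (20.8%) held it. Windows that overlap exons are included in both counts. The shares were near each other, and a match describes the letters only.

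The second question was how the lines differ on the same coating. In TKO cells on DLL4, against NT cells on DLL4, 5 members rose and 8 fell (background 26.6% called, 16.1% rose and 10.5% fell), and on IgG 5 rose and 3 fell (background 27.6%, 15.2% rose and 12.4% fell). In NKO cells 6 rose and 8 fell on DLL4 (background 20.7%, 11.4% rose and 9.31% fell) and 5 rose and 2 fell on IgG (background 10.7%, 4.92% rose and 5.74% fell). The median over members was -0.09 for TKO and -0.20 for NKO on DLL4, and -0.0044 for TKO and 0.015 for NKO on IgG, against 0.033 to 0.062 over all genes. The comparisons of both knockout lines use the same NT libraries, so their values are set side by side without an overlap.

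Of the 4 secreted or matrix members, MMRN1 and VWF were higher in both knockout lines on both coatings. MMRN1 was at 93.7 and 93.4 TPM in TKO, 28.6 and 24.8 TPM in NKO and 15.6 and 12.1 TPM in NT cells on DLL4. On IgG it was at 66.7 and 70.8 TPM in TKO, 21.6 and 16.5 TPM in NKO and 8.52 and 7.59 TPM in NT cells. The 3 lines did not overlap on either coating, with TKO highest and NT lowest. Against NT, MMRN1 rose in TKO cells by 2.68 ± 0.14 on DLL4 (SE; limma adjusted p = 3.1e-07) and by 2.95 ± 0.14 on IgG (adjusted p = 2e-07). In NKO cells it rose by 0.90 ± 0.14 on DLL4 (adjusted p = 0.00151) and by 1.14 ± 0.14 on IgG (adjusted p = 0.00055).

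VWF, von Willebrand factor, the glycoprotein of endothelial storage granules that binds platelets, was at 37.0 and 49.2 TPM in TKO, 42.8 and 29.4 TPM in NKO and 16.3 and 9.60 TPM in NT cells on DLL4. On IgG it was at 27.3 and 33.0 TPM in TKO, 36.7 and 22.2 TPM in NKO and 10.5 and 6.63 TPM in NT cells. Every knockout library stood above every NT library, and TKO and NKO libraries overlapped. VWF rose in TKO cells by 1.69 ± 0.30 on DLL4 (limma adjusted p = 0.00169) and by 1.73 ± 0.30 on IgG (adjusted p = 0.00169). In NKO cells it rose by 1.43 ± 0.30 on DLL4 (adjusted p = 0.00749) and by 1.66 ± 0.30 on IgG (adjusted p = 0.00541). The NKO calls were lost on DLL4 without NT DLL4 library 3 (0.0748) or NKO DLL4 library 1 (0.0682), and on IgG without NT IgG library 3 (0.0661) or NKO IgG library 1 (0.0582).

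MMRN2 and EGFL7 separated the lines in other ways. MMRN2 rose in NKO against NT cells on IgG by 0.79 ± 0.11 (limma adjusted p = 0.00084). EGFL7 rose in NKO against NT cells on DLL4 by 0.62 ± 0.12 (adjusted p = 0.00399).

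JUP was lower in both knockout lines. It was at 43.6 and 44.6 TPM in TKO, 49.6 and 61.5 TPM in NKO and 116 and 107 TPM in NT cells on DLL4. On IgG it was at 35.3 and 35.3 TPM in TKO, 38.4 and 44.3 TPM in NKO and 64.8 and 71.9 TPM in NT cells. Every knockout library was below every NT library on either coating. JUP fell in TKO cells by 1.32 ± 0.11 on DLL4 (limma adjusted p = 8.2e-06) and by 0.93 ± 0.11 on IgG (adjusted p = 0.00013), and in NKO cells by 1.00 ± 0.11 on DLL4 (adjusted p = 0.00014) and by 0.71 ± 0.11 on IgG (adjusted p = 0.00209).

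CLDN5 was lowest in NKO cells. Against NT it fell in NKO cells by 1.30 ± 0.16 on DLL4 (limma adjusted p = 0.00023) and by 2.00 ± 0.16 on IgG (adjusted p = 1.7e-05). In TKO cells it fell by 0.73 ± 0.16 on IgG (adjusted p = 0.00566), while on DLL4 the 36.3 and 30.9 TPM of TKO cells and the 44.8 and 36.9 TPM of NT cells gave no call.

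**Figure D3:**
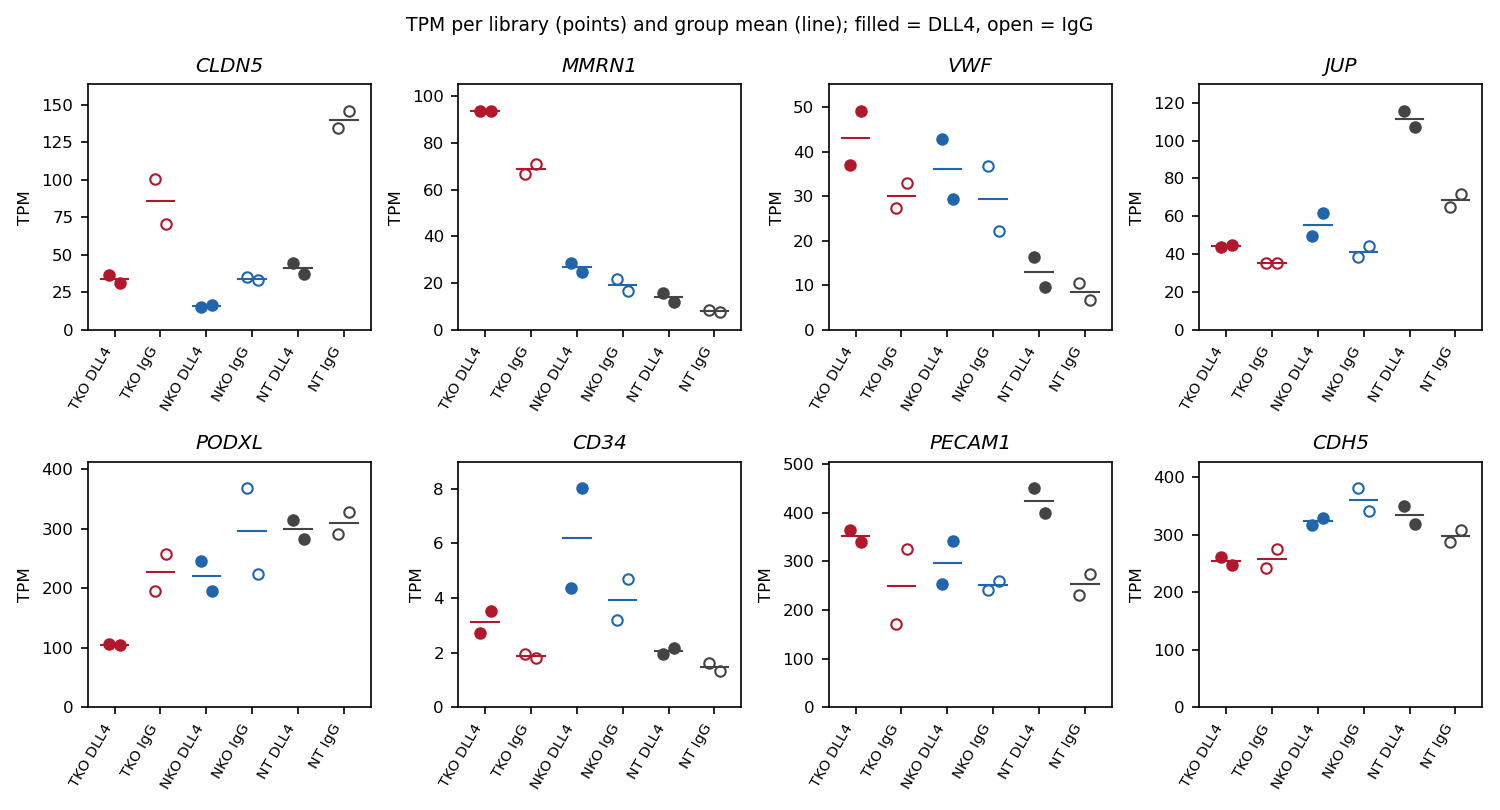
TPM of each library for members called with a log2 change of at least 1 and for the defining genes, with groups in the order TKO, NKO and NT and DLL4 left of IgG in each; every point is 1 library and the bar is the mean of 2. MMRN1 reaches 93.7 TPM in TKO cells against at most 15.6 TPM in NT cells, and CLDN5 is highest in NT cells on IgG, at 134 and 146 TPM.

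Among surface markers the lines differed in different genes. CD34 was at 4.36 and 8.03 TPM in NKO cells against 1.95 and 2.17 TPM in NT cells on DLL4, and at 3.18 and 4.70 TPM in NKO cells against 1.62 and 1.33 TPM in NT cells on IgG. Its NKO libraries were above the NT libraries, and the 2 NKO libraries of each coating were far apart. It rose by 1.19 ± 0.25 on DLL4 (limma adjusted p = 0.00653), a call lost without NKO DLL4 library 2 (0.0529). On IgG it rose by 0.98 ± 0.25 (adjusted p = 0.0273), a call lost without NT IgG library 2 (0.0851), NT IgG library 3 (0.162) or NKO IgG library 2 (0.11). In TKO cells CD34 was at 2.70 and 3.54 TPM on DLL4 and 1.95 and 1.81 TPM on IgG, with no call against NT.

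In TKO cells on DLL4, PODXL fell against NT cells on DLL4 by 1.50 ± 0.20 (limma adjusted p = 0.00025). CD93, a C-type lectin receptor of the same family as CLEC14A, was at 199 and 196 TPM in TKO cells against 345 and 287 TPM in NT cells on DLL4. It fell by 0.67 ± 0.14 (adjusted p = 0.00517), a call lost without NT DLL4 library 2 (0.0552). ROBO4, a Roundabout receptor of endothelium, rose in TKO cells by 0.40 ± 0.10 on DLL4 (adjusted p = 0.0101), with 371 and 374 TPM against 293 and 270 TPM in NT cells, and lost the call without NT DLL4 library 3 (0.0865), TKO DLL4 library 2 (0.0555) or TKO DLL4 library 3 (0.0596). On IgG it rose by 0.54 ± 0.10 (adjusted p = 0.00189), with 402 and 471 TPM in TKO against 274 and 324 TPM in NT cells.

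Adherens junction genes moved in both directions. NECTIN2 fell in TKO cells by 0.68 ± 0.10 on DLL4 (limma adjusted p = 0.00034) and by 0.50 ± 0.10 on IgG (adjusted p = 0.00311), and in NKO cells by 0.50 ± 0.10 on DLL4 (adjusted p = 0.00453). On DLL4 it was at 170 and 159 TPM in TKO, 175 and 198 TPM in NKO and 271 and 258 TPM in NT cells, so that both NT libraries were the highest. PKP4, a plakophilin relative of p120-catenin, was at 19.1 and 20.2 TPM in NKO cells on DLL4 against 12.4 and 10.7 TPM in NT cells (0.72 ± 0.12, adjusted p = 0.00158). On IgG it was at 19.0 and 17.8 TPM in NKO cells against 12.5 and 10.6 TPM in NT cells (0.63 ± 0.12, adjusted p = 0.00566), a call lost without NT IgG library 3 (0.0654). CTNND1, p120-catenin, which keeps VE-cadherin at the membrane, was at 86.3 and 102 TPM in TKO cells against 68.9 and 66.5 TPM in NT cells on IgG (0.47 ± 0.11, adjusted p = 0.00717), a call lost without TKO IgG library 3 (0.068).

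CDH5 was lower in TKO than in NT cells on DLL4, by 0.39 ± 0.09 (limma adjusted p = 0.00653), a call lost without NT DLL4 library 2 (0.0643) or TKO DLL4 library 3 (0.061). Between the knockout lines CDH5 was at 242 and 275 TPM in TKO against 381 and 341 TPM in NKO cells on IgG, a fall of 0.48 ± 0.09 (adjusted p = 0.00305) that held without any 1 library. In NKO against NT cells on DLL4, 3 of 6 tested tight junction genes (CLDN5, F11R and TJP1) and GJA1 of the 2 gap junction genes fell. Of all tested genes, 9.31% fell in that comparison, and the classes hold few genes. F11R was at 20.3 and 20.4 TPM in NKO against 36.2 and 30.0 TPM in NT cells (-0.67 ± 0.12, adjusted p = 0.00269), and GJA1 was at 115 and 93.5 TPM in NKO against 204 and 189 TPM in NT cells (-0.92 ± 0.15, adjusted p = 0.00186). TJP1 fell there by 0.45 ± 0.11 (adjusted p = 0.0138), a call lost without NT DLL4 library 2 (0.077), NT DLL4 library 3 (0.0576) or NKO DLL4 library 1 (0.111).

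The remaining calls against NT were small and each was lost when at least 2 different libraries were left out in turn. In TKO cells on DLL4 these were CTNND1 (0.37 ± 0.11) and PKP4 (0.36 ± 0.12), which rose, and GJC1 (-0.62 ± 0.15), F11R (-0.41 ± 0.12) and CTNNB1 (-0.39 ± 0.13), which fell. In NKO cells on DLL4 they were ICAM2 (0.34 ± 0.10), which rose, and CLEC14A (-0.31 ± 0.08) and CD99 (-0.24 ± 0.07), which fell.

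**Figure D4:**
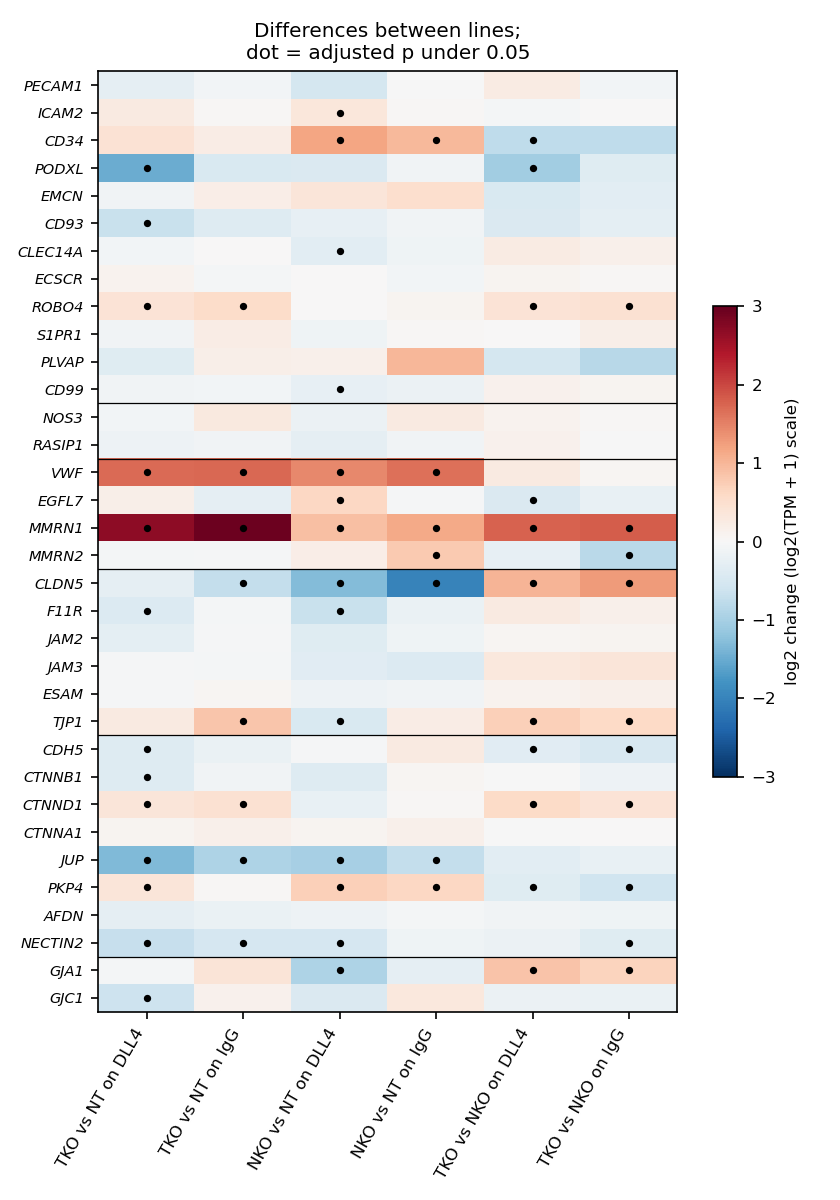
Log2 differences between lines on the same coating for the 34 tested members (rows, parted by role) in 6 comparisons (columns), with red for higher and blue for lower in the line named first and a dot for a limma adjusted p under 0.05. MMRN1 and VWF are red with a dot in all 4 columns against NT and JUP is blue with a dot; these 4 columns share the NT libraries.

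The knockout lines were also compared directly. On DLL4 6 members were higher and 5 lower in TKO than in NKO cells (background 22.9% called, 12.9% higher and 9.91% lower), and on IgG 6 were higher and 4 lower (background 19.6%, 10.9% higher and 8.75% lower). MMRN1 was higher in TKO cells by 1.78 ± 0.14 on DLL4 (limma adjusted p = 1.2e-05) and by 1.81 ± 0.14 on IgG (adjusted p = 1.4e-05). CLDN5 was higher by 1.03 ± 0.16 on DLL4 (adjusted p = 0.00082) and by 1.28 ± 0.16 on IgG (adjusted p = 0.00025), and TJP1 by 0.72 ± 0.11 (adjusted p = 0.00074) and 0.60 ± 0.11 (adjusted p = 0.00302). PODXL was lower in TKO cells by 1.05 ± 0.20 on DLL4 (adjusted p = 0.00365) and MMRN2 by 0.82 ± 0.11 on IgG (adjusted p = 0.0004). These calls held without any 1 library. GJA1 was higher in TKO cells by 0.86 ± 0.15 on DLL4 (adjusted p = 0.00218) and by 0.66 ± 0.15 on IgG (adjusted p = 0.0115), the second of which was lost without TKO IgG library 3 (0.0652) or NKO IgG library 2 (0.0605). The p120-catenin gene CTNND1 was higher in TKO cells on DLL4 by 0.59 ± 0.11 (adjusted p = 0.00242), also without any 1 library, and PKP4 was lower on IgG by 0.59 ± 0.12 (adjusted p = 0.00478). The other calls were ROBO4 on both coatings and CTNND1 on IgG, which were higher in TKO cells, and CDH5, PKP4, CD34 and EGFL7 on DLL4 and NECTIN2 on IgG, which were lower, each lost without at least 1 library.

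A group of 12 tested members gave no call in any comparison: PECAM1, EMCN, ECSCR, the sphingosine 1-phosphate receptor S1PR1, PLVAP, NOS3 (endothelial nitric oxide synthase), RASIP1, JAM2, JAM3, ESAM, CTNNA1 and AFDN (afadin). NOS3 was at 92.8 to 134 TPM, RASIP1, an effector of small GTPases, at 106 to 148 TPM and S1PR1 at 160 to 212 TPM over all libraries. PLVAP ranged more widely, from 1.42 to 6.26 TPM, and its 2 NKO libraries on IgG were at 2.86 and 6.26 TPM. A p that misses the threshold does not show that these genes were equal between groups. CLDN11 (0.105 to 0.645 TPM), CGN (0.443 to 0.918 TPM) and OCLN (0.0272 to 0.241 TPM) stayed under 1 TPM in every library and were not tested.

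Other genes of the same kinds were taken from lists written from general knowledge with earlier results of these data known. Of 39 tested further endothelial identity genes, 6 rose and 3 fell on DLL4 in TKO cells, 2 rose and 1 fell in NKO cells and 12 rose and 5 fell in NT cells, where 6.51%, 0.782% and 16.0% of all tested genes were called in TKO, NKO and NT cells. Of 50 tested further junction genes, 4 rose and 1 fell in TKO cells, 0 were called in NKO cells by limma (5 had an unadjusted p under 0.05) and 12 rose and 2 fell in NT cells. No share of all tested genes was computed for the unadjusted p, so that count of 5 has no baseline. The called share of the further junction genes was 10% in TKO and 28% in NT cells, and that of the further identity genes 23.1% in TKO, 7.69% in NKO and 43.6% in NT cells. FLT1, a VEGF receptor, had 67.2 and 62.3 TPM in TKO cells on DLL4 against 26.0 and 29.2 TPM on IgG (1.21 ± 0.11, adjusted p = 9.6e-05), and 82.6 and 73.6 TPM in NT cells on DLL4 against 26.1 and 23.9 TPM on IgG (1.60 ± 0.11, adjusted p = 6.6e-06). ESM1, a secreted proteoglycan of tip cells, fell on DLL4 in TKO cells by 1.50 ± 0.13 (adjusted p = 6.6e-05), in NKO cells by 1.02 ± 0.13 (adjusted p = 0.00344) and in NT cells by 2.00 ± 0.13 (adjusted p = 4.0e-06). In both genes the coatings did not overlap in these lines.

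Against NT, 9 of the 39 further identity genes rose and 12 fell in TKO cells on DLL4, 12 rose and 12 fell on IgG, and in NKO cells 5 rose and 8 fell on DLL4 and 5 rose and 3 fell on IgG. Of the 50 further junction genes, 14 rose and 5 fell in TKO cells on DLL4, 15 rose and 1 fell on IgG, and in NKO cells 1 rose and 9 fell on DLL4 and 3 rose and 3 fell on IgG. The called shares were 53.8% of the identity and 38% of the junction genes for TKO on DLL4, against 26.6% of all tested genes, and 61.5% and 32% on IgG, against 27.6%. For NKO they were 33.3% and 20% on DLL4, against 20.7% of all tested genes, and 20.5% and 12% on IgG, against 10.7%. CGNL1, paracingulin, had 18.6 and 18.2 TPM in TKO cells on DLL4 against 1.74 and 1.38 TPM in NT cells (2.93 ± 0.18, adjusted p = 7.4e-07). RAMP2, which pairs with the adrenomedullin receptor, had 11.8 and 15.7 TPM in TKO and 6.80 and 6.69 TPM in NKO libraries on IgG, and was listed at 0 in both NT libraries on IgG. GJA4, connexin 37, was at 0.0608 and 0.106 TPM in TKO cells, 0 and 0.0486 TPM in NKO cells and 6.42 and 4.27 TPM in NT cells on DLL4, and was listed at 0 in all 6 libraries on IgG.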

How the data were processed

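Polyadenylated RNA of 12 TeloHAEC libraries was compared, 2 for each of 3 lines on each of 2 coatings. The deposited values are TPM per gene symbol made by the authors with kallisto and edgeR on hg38, per the submitters' processing notes. The version of each tool is not given in the sources used here, nor is the annotation. Libraries carry the numbers of the table's columns (2 and 3 for NT and TKO, 1 and 2 for NKO), while the labels number them 1 and 2. All value columns belonged to these libraries.

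Genes with at least 1 TPM in at least 2 libraries were kept. log2(TPM + 1) was fitted with limma 3.58.1 in R 4.3.3: 1 mean per group, empirical Bayes with a variance trend, 6 residual degrees of freedom (10.8 after moderation), tests two-sided, p adjusted by Benjamini and Hochberg's method across every gene kept, and calls made under 0.05. The fit was tested on simulated data. Tables and figures used Python 3.11.15, pandas 2.3.3 and matplotlib 3.10.9.

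The members, lists and tests were chosen with earlier results of these data known. Values per library are given for members called with a log2 change of at least 1 and for PECAM1, CDH5, VWF and CLDN5, and for others where the text names them; of other lists, genes among the 4 with the smallest p of those called were named. The alternatives were a pseudocount of 0.1, no filter, median-of-ratios rescaling, the replicate number as a block, a fit of only the groups compared and each library left out. Leaving out KPNA2P2 was added after the data were seen.

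Promoter windows came from a RefSeq table (GRCh38.p14), and gene positions from GENCODE 29 (GRCh38) served to pick printed windows that overlap no exon; the motif counts include windows that do. Pseudogene copies can share reads with some members, which was not tested. CD99P1 was at 22.1 to 46.1 TPM, against 1745 to 2287 TPM for CD99. VWFP1 was at 0.0210 to 0.437 TPM, against 6.63 to 49.2 TPM for VWF. The split between copies is therefore uncertain for CD99 and VWF.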

Additional observations from a re-analysis of the deposited data

Results flagged for a closer look

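Each result here is a difference between the DLL4 response of a knockout line and that of NT cells that passed limma's test, all in genes outside the 38 listed.

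GJA4 had a response lower in TKO than in NT cells by -2.53 ± 0.31 (SE; adjusted p = 0.0075) and lower in NKO than in NT cells by -2.61 ± 0.31 (adjusted p = 0.00276). Since GJA4 was listed at 0 on IgG in all lines, these sizes depend on the pseudocount, and with 0.1 in place of 1 they were -4.87 (adjusted p = 0.111) and -5.45 (adjusted p = 0.0824). The TKO call was also lost without TKO DLL4 library 3 (adjusted p = 0.0517).

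In NKO against NT cells, FLT1 responded by -1.02 ± 0.15 (adjusted p = 0.0144) and AMOTL2, an angiomotin of junctions, by -0.87 ± 0.15 (adjusted p = 0.0297), both with a smaller rise on DLL4 in NKO cells. ESM1 differed by 0.98 ± 0.18 (adjusted p = 0.0383), with a smaller fall in NKO cells. The apelin gene APLN differed by 1.03 ± 0.19 (adjusted p = 0.037) and the kinase BMX by 0.92 ± 0.17 (adjusted p = 0.0407). When each of the 8 libraries was left out in turn, the call was lost in 4 fits for FLT1, 6 for AMOTL2, 6 for ESM1, 8 for APLN and 8 for BMX, and no difference changed its sign.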

How the results depend on the processing

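Of 82 calls of members over all comparisons, 48 held in every fit that left out 1 library, 34 were lost in at least 1, and none changed sign. Of the same 82, 30 were lost in a fit of only the groups compared, 18 without the filter, 8 with the replicate block, 4 with median-of-ratios rescaling, 2 with a pseudocount of 0.1 and 1 without KPNA2P2. With 1 library left out in turn, the count of members called was 3 to 4 (4 with all libraries) for DLL4 in TKO cells, 1 to 1 (2) in NKO cells and 9 to 11 (13) in NT cells. It was 6 to 9 (13) for TKO against NT on DLL4, 8 to 10 (8) on IgG, 10 to 12 (14) for NKO against NT on DLL4 and 4 to 8 (7) on IgG. It was 6 to 9 (11) for TKO against NKO on DLL4 and 6 to 12 (10) on IgG, and 0 to 0 and 0 to 1 (0 each) for the response differences of TKO and NKO. A fit of only the groups compared, which has fewer libraries to estimate the spread, called 1 member for DLL4 in TKO cells, 0 in NKO cells, 3 for NKO against NT on IgG and 3 for TKO against NKO on IgG. Over all genes that fit called 166 in place of 866 for DLL4 in TKO, 0 in place of 104 in NKO and 1085 in place of 2130 in NT cells, 2245 in place of 3666 for TKO against NT on IgG, 1835 in place of 2758 for NKO against NT on DLL4, 424 in place of 1418 on IgG, 689 in place of 2612 for TKO against NKO on IgG and 70 in place of 118 for the NKO response difference. Without the filter 1 member was called for DLL4 in NKO cells, and 78 genes for the NKO response difference. Median-of-ratios rescaling called 1 member, TJP1, for the NKO response difference. With the replicate number as a block, 7 members were called for DLL4 in TKO cells and 1, EGFL7, for the NKO response difference. The numbers were not taken to pair the libraries, since a correlation over 0.1 was seen in NKO cells and not in the other lines: the deviations of same-numbered libraries correlated at 0.0165 in TKO cells, 0.279 in NKO cells and -2.9e-04 in the NT line. Signs turned for differences that were never called: PECAM1 in TKO against NT on IgG (-0.09) was 0.03 without NT IgG library 3, 0.37 without TKO IgG library 2 and -0.56 without TKO IgG library 3, and PODXL in TKO against NKO on IgG (-0.36) was 0.0003 without NKO IgG library 1 and -0.71 without NKO IgG library 2. The cause was not tested where none is given. No depth is known, so nothing is said of what more reads would show.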

Other observations

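Over the 12 libraries, the tested genes whose log2(TPM + 1) followed 3 defining genes most closely were picked by Pearson's r, as a description: the libraries of a line and coating are shared by all genes, so r mostly reflects the 6 groups. CDH5 was followed by ENAH, KLHL6 and KIRREL1 (r = 0.945 for each). CLDN5 was followed by HOXB2 (r = 0.957), RHOF (0.951) and HOMER3 (0.946), and VWF by ADSS (0.971), TCTEX1D2 (0.962) and ABI3BP (0.951).

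Of the 6 lymphatic endothelial markers looked for, the 2 that were tested, PDPN and LYVE1, differed by line. PROX1, FLT4, CCL21 and RELN were under 1 TPM in every library. PDPN, podoplanin, a membrane glycoprotein of lymphatic endothelium, averaged 7.41 ± 1.10 TPM in TKO, 368 ± 159 TPM in NKO and 102 ± 8.36 TPM in NT cells on DLL4 (SD, n = 2 each). On that coating TKO cells differed from NT cells by -3.62 ± 0.30 (SE; limma adjusted p = 7.2e-06) and NKO cells by 1.77 ± 0.30 (adjusted p = 0.00226). LYVE1, a hyaluronan receptor, was lower in both knockout lines than in NT cells on DLL4, by -0.70 ± 0.11 in TKO (adjusted p = 0.00056) and -0.61 ± 0.11 in NKO cells (adjusted p = 0.00263), so that PDPN and LYVE1 differed in direction in NKO cells. LYVE1 rose on DLL4 against IgG by 0.69 ± 0.11 in TKO (adjusted p = 0.00319), 0.71 ± 0.11 in NKO (adjusted p = 0.0107) and 0.77 ± 0.11 in NT cells (adjusted p = 0.00094).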
